A study of Mus musculus with 4 samples.

Results

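The Ifitm family was represented in the matrices by 7 genes, and 4 of them are described here across the states of tumour-infiltrating CD8 T cells: Ifitm1, Ifitm2, Ifitm3 and Ifitm10. They were taken by symbol from the 32285 genes of each matrix. They were chosen with their levels by group and by cell state known, so their fitted changes and calls below, between groups and between classes, describe these samples and are not independent tests. The remaining members, Ifitm5, Ifitm6 and Ifitm7, are given by level only.

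The cells were CD8 T cells sorted as CD45+CD3+CD8+ and viability dye negative from B16F10 tumours, a transplantable mouse melanoma, grown in C57BL/6J mice aged 6 to 8 weeks. The samples carried 1 of 2 guide labels, with 2 samples each: sgArid1a, a guide against Arid1a, and sgScr, the control guide. Arid1a encodes a DNA-binding subunit of the BAF (SWI/SNF) chromatin remodelling complex, and the title of the series links ARID1A to type I interferon signalling in anti-tumour immunity. In which cells the guide acted is not given in the labels. Nor do they say whether the samples of a group came from separate animals, so errors and p-values below cover sample-to-sample spread that may be technical only.

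IFITM proteins are small membrane proteins that block the entry of many enveloped viruses by hindering fusion of viral and cell membranes. IFITM3 acts mainly in endosomes and IFITM1 more at the cell surface, as established largely in human cells. Ifitm1, Ifitm2 and Ifitm3 are interferon-inducible genes, and interferon acts on many such genes through a promoter element called the interferon-stimulated response element. In mice, Ifitm3 is kept on in virus-specific resident memory CD8 T cells of the lung. Ifitm10 is a more distant relative with no settled role in antiviral defence.

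The 4 genes lay in 2 places on chromosome 7 (GENCODE M21 annotation, build GRCm38). Ifitm2 (ENSMUSG00000060591) was at chr7:140954837-140955987 on the minus strand, Ifitm1 (ENSMUSG00000025491) at chr7:140967221-140969825 on the plus strand and Ifitm3 (ENSMUSG00000025492) at chr7:141009586-141010770 on the minus strand, within 55.9 kb. Ifitm10 (ENSMUSG00000045777), at chr7:142325837-142373753 on the minus strand, lay 1.32 Mb further on. The promoter stretches below, 100 bases before and 30 bases after the annotated RefSeq start (GRCm38.p6, read on each gene's own strand), are shown because they differ in the core of the interferon-stimulated response element. Capitals mark matches on either strand to that core, searched as GAAA, any 2 bases and a second GAAA. The stretches are chr7:140967976-140968105 for Ifitm1, chr7:140955932-140956061 for Ifitm2, chr7:141010715-141010844 for Ifitm3 and chr7:142372230-142372359 for the first of 3 Ifitm10 starts; RefSeq starts can lie inside the outermost GENCODE bounds given above.
Ifitm1: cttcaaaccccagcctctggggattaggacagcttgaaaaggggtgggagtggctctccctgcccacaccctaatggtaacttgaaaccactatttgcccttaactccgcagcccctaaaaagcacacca
Ifitm2: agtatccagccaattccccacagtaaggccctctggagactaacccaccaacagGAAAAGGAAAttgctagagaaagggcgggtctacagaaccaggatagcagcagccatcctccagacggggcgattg
Ifitm3: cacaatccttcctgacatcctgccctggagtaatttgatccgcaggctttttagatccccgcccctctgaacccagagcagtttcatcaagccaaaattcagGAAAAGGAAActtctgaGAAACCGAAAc
Ifitm10: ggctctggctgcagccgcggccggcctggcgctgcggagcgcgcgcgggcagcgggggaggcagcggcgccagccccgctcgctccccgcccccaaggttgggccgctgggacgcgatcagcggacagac

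In the full 300-base windows, the element's core was matched 1 time in Ifitm2, starting at base -46 from the start, and 2 times in Ifitm3, starting at bases 3 and 20 after it (the start base counts as 1). No match to these letters was found in the window of Ifitm1 or in any of the 3 windows of Ifitm10. Of all 32851 promoter windows in the RefSeq table, 3.44% held at least 1 match and 0.225% at least 2. The core of the interferon-gamma activated site, TTCNNNGAA, was matched 1 time in Ifitm3 (both strands searched), starting at base 14 and overlapping the second response element match, against 8.30% of all windows with a match. A match is a description of the letters and not a bound site.

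The matrices held 39473 barcodes, of which 38186 T cells were kept: 10666 and 12739 in the sgArid1a samples (replicates 1 and 2) and 7631 and 7150 in the sgScr samples. Their summed counts were 38974144 and 80818860 UMIs in sgArid1a, and 35544719 and 32086960 UMIs in sgScr, and the median T cell held 2401 and 4016 UMIs in sgArid1a, and 3749 and 3595.5 UMIs in sgScr. Pairs of libraries shared 78 to 231 cell barcodes, at most 2.07% of the smaller library. Arid1a itself had 74.2 and 72.5 UMIs per 1000000 UMIs of the sample (CPM) in sgArid1a, against 84.9 and 93.7 CPM in sgScr (log2 fold change -0.26 ± 0.06 SE, adjusted p = 0.00411 by edgeR's quasi-likelihood test). Counts at the 5′ end of a transcript do not check an edited site.

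Over all T cells, Ifitm1, Ifitm2 and Ifitm3 were low and higher in sgArid1a, while Ifitm10 was several times more abundant and nearly level between the groups. UMIs count transcripts at the 5′ end, so these levels were not divided by transcript length. Ifitm1, the member acting at the cell surface, had 13.0 and 6.58 CPM in the sgArid1a samples, against 2.14 and 0.935 CPM in the sgScr samples. Ifitm2, its neighbour, had 6.59 and 6.08 CPM in sgArid1a, against 2.64 and 1.78 CPM in sgScr. Ifitm3, the endosomal restriction factor, had 3.18 and 2.86 CPM in sgArid1a, against 0.563 and 1.59 CPM in sgScr. For these 3 genes both sgArid1a samples lay above both sgScr samples. Ifitm10 had 60.8 and 64.3 CPM in sgArid1a, against 68.3 and 69.4 CPM in sgScr, so that here both sgArid1a samples were the lower.

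**Figure D1:**
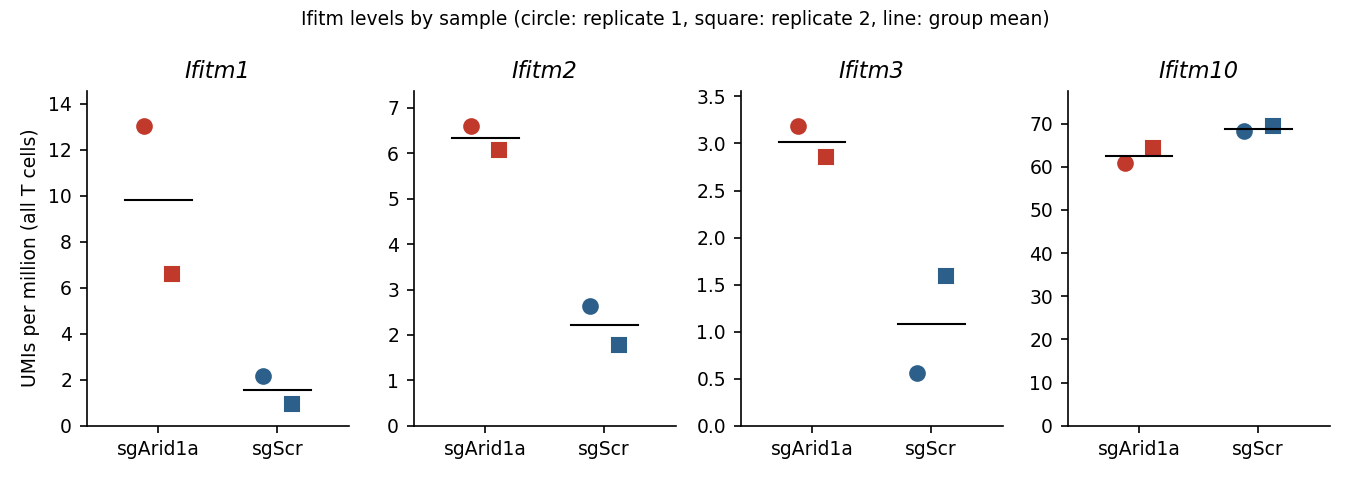
CPM over all T cells of each sample for the 4 genes, on linear axes that start at 0; each point is 1 sample and the line is the mean of the 2 samples of a group. Ifitm1, Ifitm2 and Ifitm3 were higher in both sgArid1a samples, and Ifitm10 lay between 60.8 and 69.4 CPM in all 4.

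The fitted log2 fold changes of sgArid1a over sgScr were 2.62 ± 0.35 for Ifitm1, 1.52 ± 0.17 for Ifitm2, 1.53 ± 0.28 for Ifitm3 and -0.11 ± 0.06 for Ifitm10 (SE, n = 2 samples in each group, UMI counts summed per sample). The Ifitm10 difference turned to 0.14 without cycling-like cells and to 0.14 when each cell was thinned to 1500 UMIs, and it passed the threshold under neither. By the threshold used for all genes (Benjamini-Hochberg adjusted p under 0.05 in edgeR's quasi-likelihood test), 3 of the 4 genes were called, all higher. Of the 12781 genes tested, 54.4% were called, 28.1% as higher and 26.3% as lower, and the 2 groups did not overlap for 76.1%; since the members were chosen on this contrast, nothing is read from their count. Without sgScr replicate 1 the Ifitm3 change fell to 0.95 and the Ifitm1 change was 3.39, and without sgScr replicate 2 the Ifitm3 change was 2.40 and the Ifitm1 change 2.15.

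The other members of the family were close to absent from these cells. No UMI of Ifitm5, a gene of bone-forming cells, was counted in 23405 sgArid1a and 14781 sgScr T cells, which allows up to 0.0371 to 0.0935 CPM per sample (3 counts). Ifitm6 had 1 UMI in each sgArid1a sample and none in the sgScr samples. Ifitm7, on chromosome 16, had 1 UMI in the sgArid1a samples together and 7 in the sgScr samples together.

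The 4 genes differed in how their counts were spread over cells. Ifitm10 was thin and widespread: 5710 of 23405 sgArid1a and 3397 of 14781 sgScr cells held a UMI, and only 14 and 17 of them held 5 or more. Ifitm1 was the opposite. Its 507 and 532 UMIs in the sgArid1a samples came from 47 and 57 cells, and its 76 and 30 UMIs in the sgScr samples from 6 and 9 cells. Cells with at least 5 Ifitm1 UMIs held 92.1 and 88.3% of the gene's UMIs in sgArid1a, and 90.8 and 56.7% in sgScr. There were 27 and 28 such cells in the sgArid1a samples, and 2 in each sgScr sample. Ifitm2 lay between, with 51.0 and 61.1% of its UMIs in cells holding at least 5 in sgArid1a, against 35.1 and 22.8% in sgScr. Ifitm3 was mostly single UMIs, with 15.3 and 24.7% in such cells in sgArid1a, and 0 and 43.1% in sgScr.

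**Figure D2:**
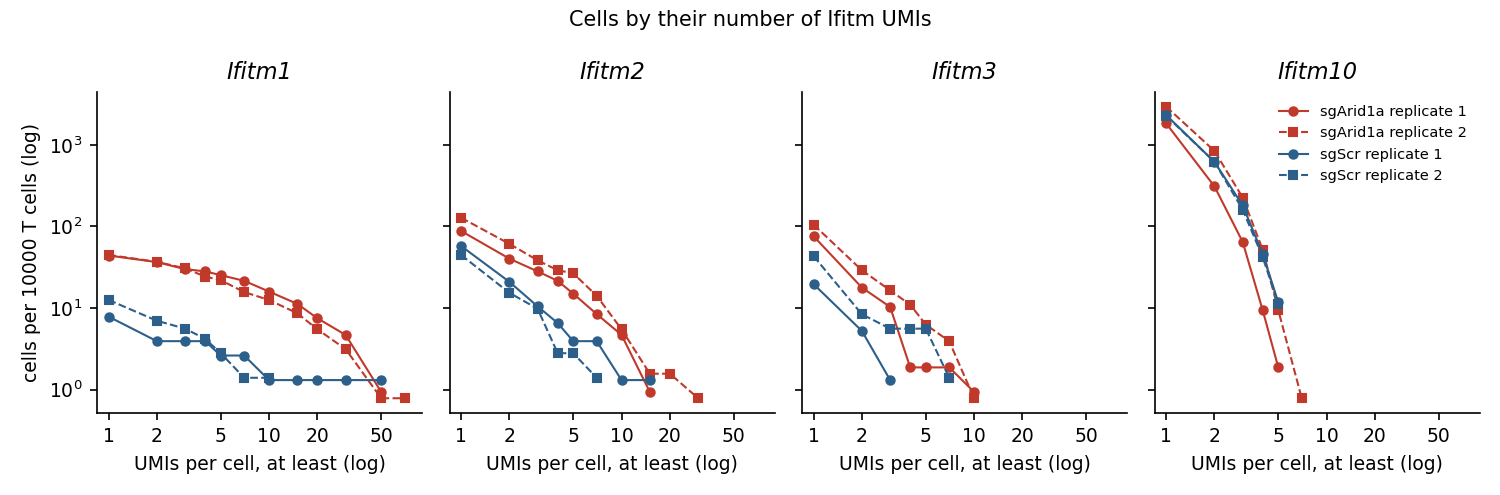
Number of cells, per 10000 T cells of a sample, that held at least the given number of UMIs of a gene, both axes logarithmic, 1 line per sample. The Ifitm1 lines run on to cells with 51 and 76 UMIs in sgArid1a, and 62 and 11 UMIs in sgScr, while those of Ifitm10 start highest and end below 10 UMIs.

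A single cell of sgScr replicate 1 held 62 of that sample's 76 Ifitm1 UMIs. Leaving out the cell with most Ifitm1 UMIs in each sample gave 11.7 and 5.64 CPM in sgArid1a, against 0.394 and 0.592 CPM in sgScr, and a fitted log2 fold change of 4.11. The size of the Ifitm1 change therefore rests on few cells. With each cell thinned to 1500 UMIs, 0.382 and 0.282% of sgArid1a cells held an Ifitm1 UMI (Wilson 95% intervals 0.274 to 0.533% and 0.203 to 0.392%), against 0.0538 and 0.0868% of sgScr cells (0.0209 to 0.138% and 0.0398 to 0.189%). Without thinning these shares were 0.441 and 0.447% in sgArid1a, and 0.0786 and 0.126% in sgScr. The thinned shares for Ifitm2 were 0.449 and 0.403% in sgArid1a, against 0.255 and 0.159% in sgScr, and those for Ifitm3 0.438 and 0.338% in sgArid1a, against 0.0806 and 0.101% in sgScr. The thinned share for Ifitm10 was 10.6 and 11.6% in sgArid1a, and 9.91 and 10.6% in sgScr, so the highest sgScr sample lay just under the lowest sgArid1a sample. Thinning left out shallower cells unequally, 1767 and 331 in sgArid1a, and 191 and 235 in sgScr. The fit on thinned cells lacks the same cells, and what their loss did to the values was not tested. Intervals cover counting error only, and exact two-sided permutation of 2 against 2 samples cannot give a p below 0.333.

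Ifitm1 was highest in memory-like cells (8846 cells led by Ccl5, Ccr2 and Cxcr3), which held 75.4% of its UMIs. There it had 74.7 and 28.3 CPM in sgArid1a, against 12.5 and 4.83 CPM in sgScr. A single cell held 62 of the 74 UMIs behind the 12.5 CPM of sgScr replicate 1. Ifitm2 was highest in the progenitor exhausted-like class (1003 cells led by Xcl1, Ccl1 and Nr4a1), at 19.9 ± 4.3 CPM (SD, n = 4 samples of both groups), against 10.7 ± 8.6 CPM in memory-like cells. This order held in both sgScr samples but not within sgArid1a, where replicate 1 had 13.9 CPM in progenitor exhausted-like and 22.0 CPM in memory-like cells, and replicate 2 had 20.04 and 12.3 CPM. The ranges of these classes overlapped. The progenitor exhausted-like name rests on 7 of 8 listed markers, a list without Tcf7, and 8 exhausted-like markers were raised as well. Its leading genes also held Cd83, Crtam, Csf2 and Ccl4, so the name is a label only, and a progenitor state was not tested. Ifitm3 was highest in interferon-stimulated-like cells (2078 cells led by Ifit3, Isg15 and Ifit1), at 13.0 ± 5.5 CPM, and its samples there all lay above those of memory-like cells, at 3.10 ± 1.74 CPM.

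Ifitm10 followed a different order. It was highest in effector-like cells (486 cells led by Gzma, S1pr5 and Zeb2), at 299.5 ± 63.7 CPM, with no overlap with the next class. Memory-like cells at 133.6 ± 5.7 CPM, innate-like cells carrying Ly49 receptors at 124.1 ± 15.1 CPM and the unnamed cluster 3, led by Id3 and Ms4a4c at 116.9 ± 12.5 CPM came next, and neighbours in this order overlapped. Interferon-stimulated-like cells followed at 78.9 ± 8.9 CPM, apart from both neighbours. Naive/central memory-like cells at 45.4 ± 2.4 CPM, the unnamed cluster 10, led by Kit and Tnfsf11, at 44.7 ± 10.8 CPM and exhausted-like cells at 43.6 ± 4.6 CPM overlapped. The progenitor exhausted-like, cycling-like and heat-shock-high classes were lowest, at 28.2 ± 2.9, 27.5 ± 5.2 and 24.4 ± 4.7 CPM, with ranges that overlapped among themselves and lay below those of exhausted-like cells.

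**Figure D3:**
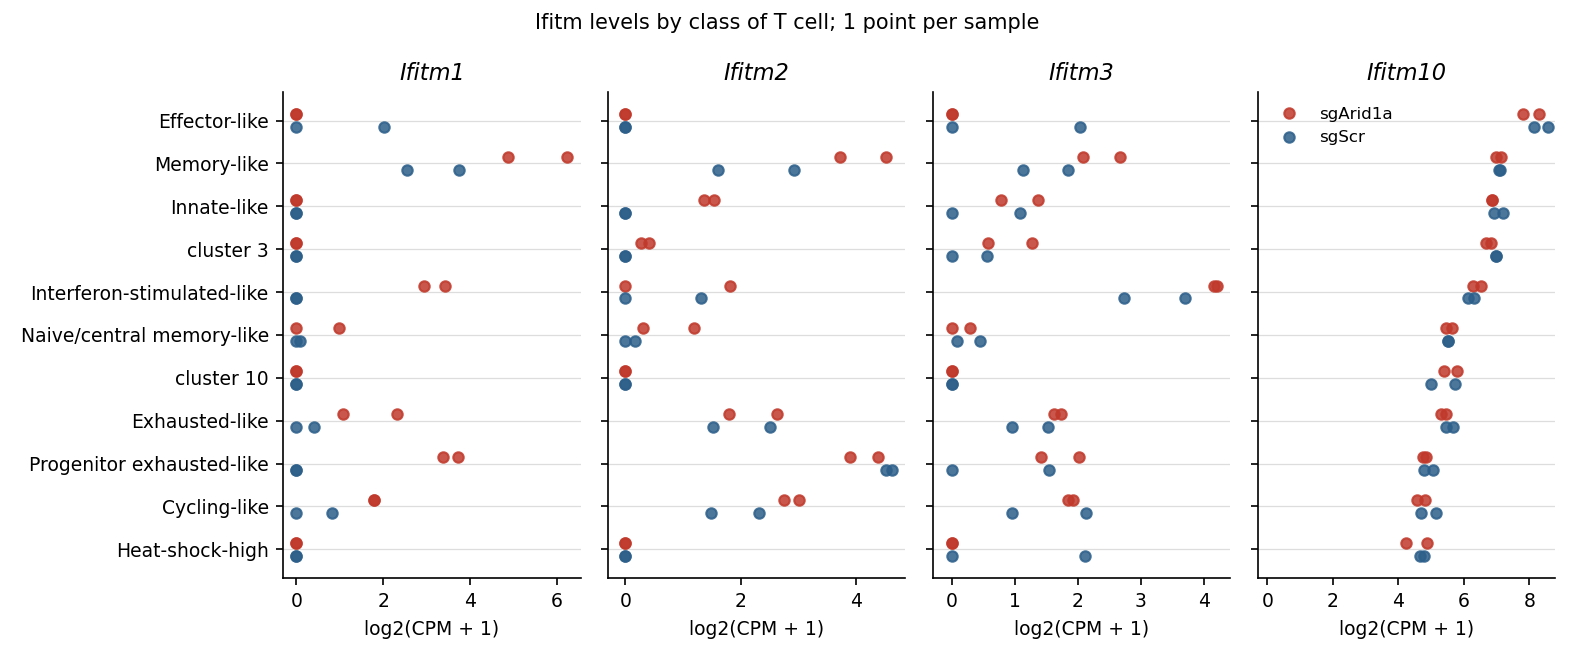
Level of each gene by class of T cell, as log2 of CPM plus a pseudocount of 1, with 1 point per sample; classes run down the page by their mean Ifitm10 level. Ifitm1 is highest in memory-like cells, Ifitm3 in interferon-stimulated-like cells and Ifitm10 in effector-like cells, while Ifitm2 is highest in progenitor exhausted-like cells in 3 of the 4 samples and in memory-like cells in sgArid1a replicate 1.

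Naive/central memory-like cells served as a low reference class, and UMIs from free RNA were not estimated. Of 13082 such cells, 0.0153% held an Ifitm1 UMI, 0.0306% an Ifitm2 UMI and 0.0612% an Ifitm3 UMI, at a median depth of 3114 UMIs. Among memory-like cells, at a median of 2860.5 UMIs, 0.746% held Ifitm1 and 0.938% Ifitm2. Among interferon-stimulated-like cells, at a median of 3332 UMIs, 2.45% held Ifitm3. Among progenitor exhausted-like cells, which were deeper at a median of 7272 UMIs, 5.98% held Ifitm2. No Ifitm2 UMI was counted in 486 effector-like cells, which together held 1182709 UMIs, and no Ifitm1 UMI in 2068 innate-like cells with 7989689 UMIs. The clusters were formed without the Ifitm genes, and class names are rebuilt from markers.

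The split of UMIs among Ifitm1, Ifitm2 and Ifitm3 changed from class to class. In memory-like cells Ifitm1 made up 69.2% of 1103 UMIs in sgArid1a and 58.5% of 171 UMIs in sgScr. Of the 100 Ifitm1 UMIs behind the sgScr share, 62 came from 1 cell of replicate 1, against 50 Ifitm2 UMIs in all, so the sgScr share rests on that cell. In progenitor exhausted-like cells Ifitm2 made up 58.8% of 199 UMIs in sgArid1a and 96.4% of 55 UMIs in sgScr. In interferon-stimulated-like cells Ifitm3 made up 64.6% of 164 UMIs in sgArid1a and 92.3% of 13 UMIs in sgScr. In cycling-like cells Ifitm2 was close to 55% in both groups, at 54.6% of 432 UMIs in sgArid1a and 54.5% of 44 UMIs in sgScr.

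**Figure D4:**
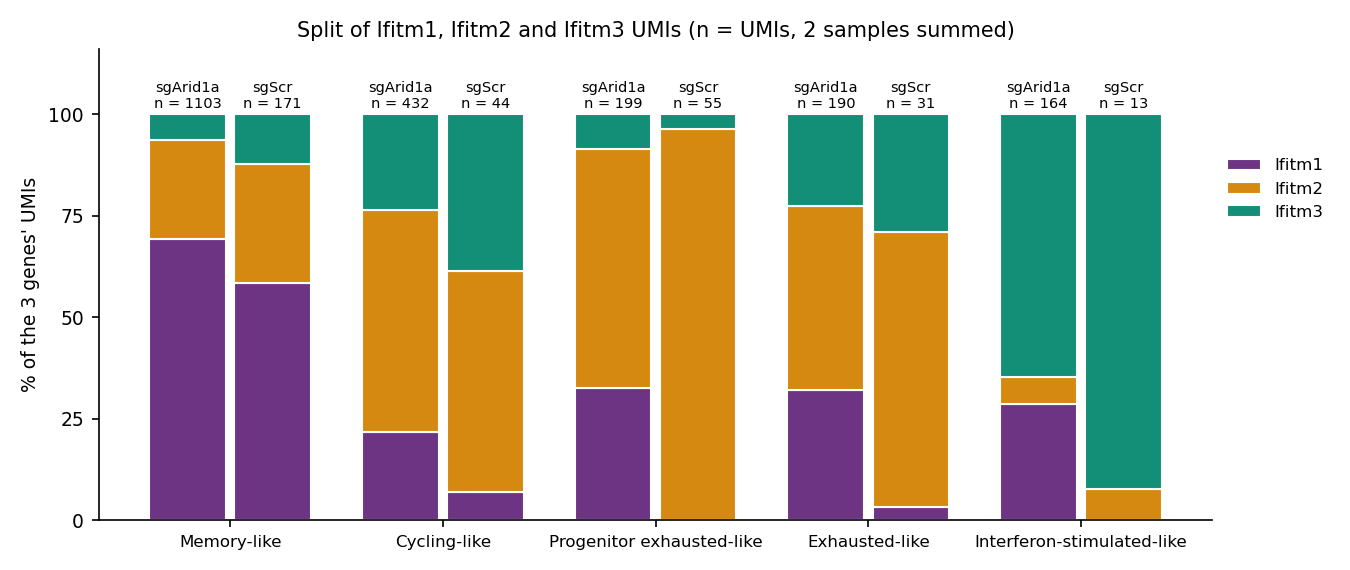
Share of the UMIs of Ifitm1, Ifitm2 and Ifitm3 held by each gene, in percent, in 5 classes of T cell, with sgArid1a left of sgScr and the UMIs of 2 samples summed (n above each bar). Ifitm1 leads in memory-like cells, Ifitm2 in progenitor exhausted-like and cycling-like cells and Ifitm3 in interferon-stimulated-like cells. In sgScr memory-like cells, 62 of the 100 Ifitm1 UMIs came from 1 cell.

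Within classes, 5 of 20 fits of a member were called, and all 5 were higher in sgArid1a. Among them was Ifitm1 in progenitor exhausted-like cells, where sgScr held no UMI, so that fit could only come out higher. Ifitm1 in cycling-like cells had 2.45 and 2.46 CPM in sgArid1a, against 0 and 0.779 CPM in sgScr. There it passed the filter on low counts only through sgArid1a, so the direction of that fit is not read either. Ifitm1 in memory-like cells changed by a log2 of 2.50 ± 0.39 and Ifitm2 by 1.91 ± 0.33 (SE), in a class where 3.12% of genes were called. With each sample left out in turn these were 1.71 (without sgArid1a replicate 1) to 3.41 (without sgScr replicate 1) for Ifitm1, and 1.33 (without sgScr replicate 2) to 3.05 (without sgScr replicate 1) for Ifitm2. The Ifitm2 values were 22.0 and 12.3 CPM in sgArid1a, against 6.61 and 2.04 CPM in sgScr. In cycling-like cells, where 5.78% of genes were called, Ifitm2 had 7.10 and 5.75 CPM in sgArid1a, against 3.99 and 1.82 CPM in sgScr (log2 1.15 ± 0.32, SE). This call was lost without sgArid1a replicate 1 (1.01) and without sgScr replicate 2 (0.70). Ifitm1 in cycling-like cells rested on 94 UMIs in sgArid1a and 3 in sgScr, in 21 cells of both groups together, and its call was lost without sgScr replicate 1. In the classes where no member was called, 8.26% of genes were called among exhausted-like, 6.18% among naive/central memory-like, 3.73% among innate-like, 2.03% among cluster 3, 1.09% among cluster 10 and 0.438% among effector-like cells. As the members were chosen on these groups, nothing is read from the counts.

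In progenitor exhausted-like cells Ifitm1 had 12.3 and 9.37 CPM in sgArid1a, while neither sgScr sample held a UMI. The 65 UMIs in sgArid1a came from 12 of 752 cells, and sgScr had 251 cells in this class, so no fold is given. In this class 2.25% of genes were called. Ifitm2 had 13.9 and 20.04 CPM in sgArid1a, against 23.8 and 22.0 CPM in sgScr (log2 -0.29 ± 0.26), and this did not pass the threshold. The difference was about as large as its error.

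In interferon-stimulated-like cells Ifitm3 had 17.5 and 16.9 CPM in sgArid1a, against 5.65 and 11.99 CPM in sgScr (log2 1.02 ± 0.40). The change did not pass the threshold, in a class where 0.302% of genes were called. Ifitm1 there had 9.83 and 6.63 CPM in sgArid1a and no UMI in either sgScr sample. Its 47 UMIs came from 7 of 1769 sgArid1a cells, and sgScr had 309 cells in this class, so no fold is given. In exhausted-like cells Ifitm2 had 2.49 and 5.22 CPM in sgArid1a, and 1.86 and 4.72 CPM in sgScr, so the samples overlapped. Ifitm1 there had 61 UMIs in sgArid1a, 54 of them in replicate 2, and 1 in sgScr, in 10 cells of both groups together. Ifitm10 was not called in any of the 9 classes where it was tested, with log2 changes of -0.21 to 0.28. In the innate-like class it had 114.2 and 114.8 CPM in sgArid1a, against 146.2 and 121.1 CPM in sgScr.

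The difference of the group effect between exhausted-like and naive/central memory-like cells was fitted as an interaction, with the sample as a block. By edgeR's quasi-likelihood test none of the 3 members fitted was called and 1, Ifitm2, had an unadjusted p under 0.05, while 5.69% of 11300 genes were called and 1977 had such a p. The fitted differences were -3.15 ± 1.04 for Ifitm2, 1.06 ± 1.46 for Ifitm3 and -0.21 ± 0.13 for Ifitm10 (log2, SE), and Ifitm1 did not pass the filter. The Ifitm2 value rested on 13 UMIs in sgArid1a, 12 of them in 1 cell of replicate 2, and 2 UMIs in sgScr among naive/central memory-like cells. It was -1.99 without sgArid1a replicate 2, -1.60 without sgScr replicate 2 and -6.19 without sgScr replicate 1, and nothing is read from it.

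Cluster sizes also differed between the samples, so levels were set at 1 common mix of the 12 clusters. Memory-like cells numbered 2675 and 3220 in sgArid1a, and 1505 and 1446 in sgScr, while naive/central memory-like cells numbered 2103 and 2817 in sgArid1a, and 4280 and 3882 in sgScr. At the common mix Ifitm1 had 17.9 and 7.71 CPM in sgArid1a, against 2.90 and 1.17 CPM in sgScr. Ifitm2 had 6.18 and 4.71 CPM in sgArid1a, against 2.54 and 1.56 CPM in sgScr. On the log2(CPM + 1) scale the difference of the group means was 2.19 for Ifitm1 and 1.08 for Ifitm2, against 2.09 and 1.19 at the samples' own mix. Ifitm3 differed by 0.57 at the common mix and 0.95 at the samples' own, and Ifitm10 by -0.09 and -0.14. Ifitm3 had 2.67 and 2.13 CPM in sgArid1a and 0.739 and 1.84 CPM in sgScr at the common mix.

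Ifitm1 and Ifitm2 were often counted in the same cells. Of 119 cells with an Ifitm1 UMI, 57.1% also held Ifitm2, which 0.872% of all T cells did, and 16.8% held Ifitm3, which 0.683% of all T cells did. Ifitm10 was held by 21.8% of them and by 23.8% of all T cells. Among 59 cells with at least 5 Ifitm1 UMIs, 72.9% held Ifitm2. These shares are across cells of 4 libraries and are given without a test.

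Cells with at least 2 Ifitm1 UMIs numbered 39 and 47 in sgArid1a, and 3 and 5 in sgScr. Of these 94 cells, 58 were memory-like, 17 cycling-like, 9 progenitor exhausted-like, 5 interferon-stimulated-like, 4 exhausted-like and 1 naive/central memory-like. They made up 0.246% of T cells and held 38.9% of all Ifitm2 UMIs and 12.4% of all Ifitm3 UMIs. Without them Ifitm2 had 3.09 and 3.71 CPM in sgArid1a, against 2.11 and 1.75 CPM in sgScr, and Ifitm3 had 2.60 and 2.67 CPM in sgArid1a, against 0.563 and 1.19 CPM in sgScr. Both sgArid1a samples thus still lay above both sgScr samples.

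All 94 cells held a UMI of a CD3 chain and 92 a UMI of Cd8a or Cd8b1. The markers of neutrophils, melanoma and red cells summed to 0 CPM in them. The macrophage and monocyte markers summed to 1485 CPM in these cells against 2594 CPM in other memory-like cells. Only 58 of the 94 were memory-like, so here and in the next sums the 2 sets are not matched by class. The most abundant of these markers over all T cells was Ly6c2, which CD8 T cells also express, at a mean of 1087 CPM. Its part in the 2 sets was not worked out. Dendritic cell markers summed to 48.5 CPM against 26.2 CPM, natural killer cell markers to 96.9 CPM against 52.8 CPM and B cell markers to 114.3 CPM against 180.1 CPM. Over all T cells, the macrophage and monocyte markers summed to 1542 and 1609 CPM in sgArid1a, against 1143 and 1083 CPM in sgScr. Dendritic cell markers summed to 81.5 and 80.6 CPM in sgArid1a, against 35.8 and 41.7 CPM in sgScr, with Cd74 the most abundant and Siglech at 0; their part in the Ifitm levels was not tested. Without cells holding a UMI of any of 15 such markers (among them Lyz2, C1qa, Apoe, S100a8, Cd79a, Ms4a1 and Mlana, but not Ly6c2, Ighm or Cd74), which were 0.853 to 1.88% of T cells per sample, the log2 changes were 2.61 for Ifitm1, 1.49 for Ifitm2 and 1.43 for Ifitm3. Cells in which several Trbv segments each had 2 UMIs or more, which include doublets, were 5.13 and 23.4% of the 39 and 47 sgArid1a cells, while among all T cells they were 6.73 and 13.2% in sgArid1a, and 11.1 and 10.6% in sgScr. Without all such cells the Ifitm1 change was 2.51. A barcode found in another library was held by 2 of the 94.

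The 74 sgArid1a cells of this kind with a Trbv segment called used 17 different segments. Trbv29 was used by 18.9% of the 74 cells, which came from several classes, and by 7.83% of other memory-like sgArid1a cells. Trbv26 was used by 16.2% and 1.71%. The 74 cells were thus not of a single receptor beta segment.

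Among memory-like cells of sgArid1a replicates 1 and 2, 28 and 23 cells held at least 2 Ifitm1 UMIs. They had 901.3 and 1476 CPM of Lgals3, which encodes galectin-3, against 156.2 and 169.0 CPM in memory-like cells with no Ifitm1 UMI. Itgae, the alpha chain of the CD103 integrin that binds E-cadherin, had 119.3 and 95.2 CPM in them, against 7.56 and 8.43 CPM. Ccr10, a receptor for skin chemokines, had 106.0 and 76.2 CPM against 3.87 and 2.92 CPM, from 3 and 5 cells. Fut7, a fucosyltransferase needed for selectin ligands, had 119.3 and 66.7 CPM against 5.27 and 5.76 CPM. In these cells Itgae had only 9 and 10 UMIs, and Fut7 9 and 7. Capg, Cd7, S100a4 and Vim were also higher and ranked above Fut7 by the ratio of the 2 sets. In sgScr, 3 and 4 memory-like cells held at least 2 Ifitm1 UMIs. They held no Ccr10 UMI, 2 and 0 Itgae UMIs, and 3 and 0 Fut7 UMIs, too few cells to compare. Lgals3, at 1188 and 987.9 CPM, Capg, Cd7, S100a4 and Vim were higher in them than in the sgScr memory-like cells without Ifitm1. All the genes named here were picked by their ratio in the sgArid1a cells after the values were seen, and the few cells per sample give no replicate error.

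In the 10 and 13 interferon-stimulated-like cells with at least 2 Ifitm3 UMIs in sgArid1a replicates 1 and 2, Isg15, a ubiquitin-like protein, had 2429 and 3324 CPM. It had 838.7 and 728.3 CPM in the class's cells with no Ifitm3 UMI. Rsad2, which encodes the antiviral enzyme viperin, had 246.5 and 340.2 CPM, against 67.8 and 66.7 CPM. Slfn5 had 739.4 and 494.8 CPM, against 100.8 and 78.3 CPM. These 3 genes too were picked after the values were seen, and all 3 are among the genes that lead the class. Ordered by the smaller of the 2 samples' ratios, they ranked 7, 5 and 2. Fcer1g, held by 1 cell of this kind in each sample, ranked 1, and Gzma, held by 3 and 6 cells, ranked 3.

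The genes whose profile was most like that of Ifitm10, over 48 profiles of 12 clusters by 4 samples, were Hsd11b1 (Pearson r = 0.87), Ly6c2 (0.86), Selplg (0.85), Lck (0.83) and Hopx (0.81), among 5165 genes. Hsd11b1 encodes an enzyme that regenerates active glucocorticoid and Selplg a selectin ligand. Ifitm10 itself was not like Ifitm1 (0.13), Ifitm2 (-0.22) or Ifitm3 (0.05). For Ifitm1 the highest of the 5165 genes was Ly6a at 0.59, followed by Lpxn, Ifi27, Psmb9 and Psmb8 at 0.51 to 0.49. Ifitm2 and Ifitm3, too low in level to be among those genes, stood at 0.62 and 0.58 against Ifitm1. Profiles of 1 sample share a library and its depth, and at these sparse counts the Ifitm1 values are not read further.

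The genes of interferon signalling and response gave the setting of the family over all T cells. Of 38 type I interferon-stimulated genes listed without the Ifitm genes, 35 were tested, 23 rose, 1 fell and 11 were not called, with a median log2 change of 0.42 against -0.02 over all 12781 genes. Over all these genes 28.1% rose and 26.3% fell. Isg15 had 83.4 and 81.6 CPM in sgArid1a, against 31.1 and 34.7 CPM in sgScr (log2 1.36 ± 0.07). Rtp4 (0.91 ± 0.06) and Isg20 (0.76 ± 0.06) were next by p, and Samd9l fell. Of 27 interferon-gamma response genes tested, 16 rose and 3 fell (Socs3, Gbp9 and Tgtp2), with a median of 0.31. Irf8, a transcription factor, rose by 1.40 ± 0.07, Gbp6, a guanylate-binding protein, by 0.73 ± 0.07 and the immunoproteasome subunit Psmb9 by 0.57 ± 0.06. These are SE from edgeR at adjusted p under 0.05, and the lists were drawn up with results of these samples known, so they are no independent evidence of a direction.

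Of 19 interferon receptors and signalling genes tested, 5 rose, 7 fell and 7 were not called, with a median of 0.02; over all genes 28.1% rose and 26.3% fell. Ifngr2, which encodes 1 of the interferon-gamma receptor chains, had 4.72 and 5.49 CPM in sgArid1a, against 14.3 and 14.3 CPM in sgScr (log2 -1.44 ± 0.09). Ikbke, a kinase upstream of interferon induction, changed by -0.83 ± 0.07 and Irf7, a factor that drives interferon genes, by 0.42 ± 0.06. The summed level of the type I list was 8927 and 8826 CPM in sgArid1a, and 8299 and 8314 CPM in sgScr, in interferon-stimulated-like cells, and 3866 and 3712 CPM in sgArid1a, and 2723 and 2717 CPM in sgScr, in memory-like cells.

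Of 10 other membrane and entry factors against viruses tested, 3 rose (Bst2, March8 and Gbp2), 2 fell (Cnp and Serinc5) and 5 were not called, with a median of 0.16, shares close to the 28.1% and 26.3% over all genes. Bst2, the tethering factor tetherin, had 173.5 and 172.4 CPM in sgArid1a, against 110.3 and 114.0 CPM in sgScr (log2 0.65 ± 0.06). March8, a ubiquitin ligase that lowers viral envelope proteins, changed by 1.35 ± 0.25 at about 1 CPM, and Cnp by -0.43 ± 0.06. Of 11 enzymes and partners reported for IFITM proteins, mostly in human cells, 3 rose, 3 fell and 5 were not called, with a median of 0.11. Cd81, a tetraspanin found with IFITM1 in human lymphocytes, had 22.6 and 25.2 CPM in sgArid1a, against 10.8 and 11.5 CPM in sgScr (log2 1.13 ± 0.08). The palmitoyltransferase Zdhhc2 rose by 0.98 ± 0.07, and the methyltransferase Setd7 changed by -0.64 ± 0.08.

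Within 100 kb of Ifitm1, Ifitm2 or Ifitm3, 8 other protein-coding genes were tested, of which the proteasome subunit Psmd13 rose (log2 0.43 ± 0.06) and Sigirr fell (-0.19 ± 0.07), with a median of -0.10, and 28.1% of all genes rose and 26.3% fell. Pgghg, 7.17 kb from Ifitm2, had 5.03 and 5.61 CPM in sgArid1a, and 5.43 and 5.17 CPM in sgScr. Near Ifitm10, Ctsd, which encodes the lysosomal protease cathepsin D and lies 2.16 kb away, had 425.1 and 448.9 CPM in sgArid1a, against 363.7 and 368.7 CPM in sgScr (log2 0.28 ± 0.06), and Lsp1 was not called. The neighbours' distances are from GENCODE M21.

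Similar sequence limits Ifitm2 most. Of the 50-base stretches in its annotated transcript, 48.5% also occur in another annotated gene. These are Ifitm3 and 6 genes that are not in the matrices, of which 5 are processed pseudogenes. The same share was 5.02% for Ifitm1, 10.0% for Ifitm3 and 3.51% for Ifitm10. No source used here says how reads matching several genes were counted, so the level of Ifitm2 is uncertain.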

How the data were processed

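Single-cell RNA libraries (10x Genomics 5′ kit, with a receptor amplification kit) were made from CD8 T cells of 4 tumour samples. The authors deposited whole-number UMI counts per gene and cell, without normalization. The version of Cell Ranger is 6.0.1 per the file headers and 3.0.2 per the submitters' processing notes, which also name Seurat and mm10. Which version applies is unsettled. Sample titles gave group and replicate.

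Of 39473 barcodes, 38316 passed (500 or more genes, mitochondrial share of 10% or less). After scaling to 10000 UMIs a cell and taking logs, cells were clustered in scanpy 1.11.5 on 2000 variable genes, without receptor, mitochondrial, ribosomal, sex-linked and Ifitm genes (30 principal components, 15 neighbours, Leiden resolution 0.8, leidenalg 0.10.2). A class was named from at least 3 raised markers that made up a set share of its list. A marker of it also had to be among the cluster's 10 leading genes, with no other class holding more there. Class names end in "-like", except heat-shock-high. A cluster of 130 cells, in whose 10 leading genes at least 5 were markers of other cell types, was left out. Doublets were not removed.

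Each sample's UMIs were added up, for all T cells and for every class that had 50 cells or more in each of the 4 samples, and fitted with edgeR 4.0.16 in R 4.3.3 (TMM, filterByExpr, quasi-likelihood F test, Benjamini-Hochberg adjusted p under 0.05). A standard error is the size of the log2 change divided by the root of F. CPM is UMIs per 1000000 UMIs of the sample or class. For shares, cells were thinned to 1500 UMIs and shallower cells left out. The common mix weights each cluster by the mean of the samples' shares.

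The members and the gene lists were chosen with earlier results of these data known. From each list the 3 genes with the smallest p are named, with others singled out after their values were seen; genes like a member are the 5 with the highest Pearson r among genes of at least 20 CPM. Promoters are from RefSeq (GRCm38.p6), where all 4 members matched by symbol. Alternatives changed the normalization (DESeq2 1.42.0), the filters, the cells and the samples used.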

Additional observations from a re-analysis of the deposited data

Results flagged for a closer look

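Ifitm2 was listed because both sgArid1a samples lay above both sgScr samples in 2 classes and below them in another. Only classes with more than 3 Ifitm2 UMIs in each group counted for this. Both sgArid1a samples were also the higher in innate-like and naive/central memory-like cells, where sgScr held 0 and 2 Ifitm2 UMIs. In memory-like cells the mean Ifitm2 CPM in sgArid1a was 3.96 times that in sgScr, and in cycling-like cells 2.21 times. In progenitor exhausted-like cells it was 0.742 times, at 13.9 and 20.04 CPM in sgArid1a, against 23.8 and 22.0 CPM in sgScr. The lower level in progenitor exhausted-like cells did not pass the threshold (log2 -0.29 ± 0.26, SE), and the call in cycling-like cells was lost without sgArid1a replicate 1 or without sgScr replicate 2. The difference between these classes was not tested, and the share of all genes without overlap within a class was not counted.

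A signal of the family also appeared in the cluster of 130 cells left out of the T cells, which was led by H2-Aa, H2-Eb1, Cd74 and Cd79a. Its 96 sgArid1a cells averaged 144.0 CPM of Ifitm3, 45.6 CPM of Ifitm2 and 43.1 CPM of Ifitm1 (mean of 2 samples), while its 34 sgScr cells, with 346900 UMIs in all, held no UMI of these genes. The UMIs came from 6 sgArid1a cells for Ifitm3, 6 for Ifitm2 and 3 for Ifitm1, too few for a fold against 34 sgScr cells.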

How the results depend on the processing

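Ifitm1, Ifitm2 and Ifitm3 were called higher over all T cells under all 14 alternatives tried, with log2 changes of 2.07 to 4.11, 1.25 to 1.87 and 0.95 to 2.40. All 4 genes were tested and 3 were called in each of them, including each sample left out in turn. The Ifitm10 change reversed to 0.137 without cycling-like cells and to 0.135 with cells thinned to 1500 UMIs. The genes called numbered 6953, and 5130 to 7523 with each sample left out. Thinning to 1500 UMIs gave 4145 of 11306 genes, with fewer UMIs and genes tested. Within classes the members' calls numbered 5, and 4 to 6 with each sample left out. The members called in the difference between classes numbered 0, and 0 to 1 with each sample left out and 1 without a filter on low counts, which was Ifitm2 each time; the cause was not tested. Within classes, changes that had not passed the threshold reversed with a sample left out: Ifitm2 in exhausted-like cells (-0.31 without sgArid1a replicate 2, -0.09 without sgScr replicate 1, up to 1.21) and Ifitm3 in cycling-like cells (-0.24 to 1.55). So did Ifitm10 in cycling-like (-0.357 to 0.079), effector-like (-0.475 to 0.058), exhausted-like (-0.244 to 0.020) and progenitor exhausted-like cells (-0.195 to 0.076). Ifitm3 in memory-like cells was called without sgArid1a replicate 2 (1.62). Where 1 sample of a group was left, it was assumed to vary like the other group.

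Over all genes, same-numbered samples did not deviate together (correlation of deviations -0.048), so the numbers were not taken as pairs. With 2 samples per group this value is the same for both numbers by construction. For Ifitm1 and Ifitm2, replicate 1 was the higher in both groups, and for Ifitm3 it was not. Over all T cells a replicate block gave 7004 calls and the same 3 members. It moved more within classes. The Ifitm1 change in memory-like cells was 2.64 ± 0.15 with the block and 2.50 ± 0.39 without, and the calls in cycling-like cells went from 619 to 1110. The alternative without the cell with most Ifitm1 UMIs was chosen after seeing the data. Depth limits Ifitm1, Ifitm2 and Ifitm3 in the small classes: of Ifitm1, effector-like cells held 1 UMI and innate-like, heat-shock-high, cluster 3 and cluster 10 cells 0.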
